A study of Mus musculus with 8 samples.

Results

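Granule genes known from neutrophils, and Chil3, were followed through 8 bulk RNA-Seq libraries of flow-sorted blood monocytes (MCs) from mice. Membership was by gene symbol, and 10 symbols were named: Chil3, Cd177, Mmp8, Lcn2, Ngp, Ltf, Mpo, Elane, Prtn3 and Ctsg. Of these, 8 were found among the 16486 genes of the expression table, and Elane and Ctsg had no row there and were not analysed here. The genes were chosen by their measured differences in these same libraries, above all between Ly6C-high and Ly6C-low MCs, so their values are given as a description and the choice itself is no finding.

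Each MC subset was represented by 2 libraries from CT mice, 1 from T1DM mice and 1 from T2DM mice. CT mice were male C57/BL6 mice, labelled wild type. For T1DM, males of that strain received streptozotocin (STZ), which kills the insulin-producing beta cells, at a daily dose of 50 mg/kg over 5 days, starting when they were 8 weeks old. For T2DM, male db/db mice were used, in which both copies of the leptin receptor gene are mutated and which become obese and diabetic. All mice were fed chow and bled at 20 to 22 weeks. MCs were sorted as CD11b+ Ly6G- cells with high or low Ly6C, and 5 mice were pooled per group. The study's methods describe sequencing in duplicate, of which both libraries per subset were used here for CT and 1 for each diabetic model. The CT duplicates may lack the variation from mouse to mouse, and p-values measure only the spread between these libraries. The same CT libraries served both diabetic models. They came from a NextSeq 500 whereas all diabetic ones came from a HiSeq 4000, so that an effect of the instrument and one of diabetes cannot be told apart.

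The values are the normalized log2 expression values that the authors deposited, from which every difference (log2FC) was taken directly. Read counts are not part of them, and the depth of each value is therefore unknown. As 2 raised to the value, each library summed to between 838696 and 1090019. The spread between replicates is given from the CT duplicates, while the fits over 8 libraries also draw on the diabetic libraries for their error. Where the mean of a gene was 8 or more, CT Ly6C-high duplicates differed by a median of 0.06. For means from 0 to below 3, their median difference was 0.49 and 5% of genes differed by more than 1.90. The study's methods name both gene counts and TPM, a unit scaled by transcript length, as output of the quantification. Which of them the deposited values were made from is not given in the sources used here, so levels are compared between libraries and not between genes.

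Neutrophils store antimicrobial proteins and proteases in granules that are filled one after another while the cell matures in the bone marrow. Azurophil granules come first and hold myeloperoxidase (Mpo) and the serine proteases neutrophil elastase (Elane), proteinase 3 (Prtn3) and cathepsin G (Ctsg). Specific granules follow and hold lactoferrin (Ltf), lipocalin-2 (Lcn2), the cathelicidin-related Ngp, the collagenase Mmp8 and the membrane protein CD177. Chil3 encodes Ym1, a secreted chitinase-like lectin without chitinase activity that is made by mouse neutrophils, alternatively activated macrophages and part of the Ly6C-high MCs. Monocytes and neutrophils descend from shared progenitors, and classical Ly6C-high MCs share some of this programme.

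The promoters of the 4 genes that the results turn on are shown because they are the region through which myeloid factors of the C/EBP and PU.1 families are known to act on granule genes. They are RefSeq sequences of GRCm38.p6, from 250 bases before to 50 bases after the annotated start of transcription, written 5′ to 3′ on the strand of the gene. The submitters' processing notes name mm10, the same assembly. Capitals mark matches on either strand to TTGCNNAA, a C/EBP-type motif, and to GAGGAA, the core of a PU.1-type site, which reads TTCCTC when it lies on the other strand.
Chil3 promoter, chr3:106167515-106167814, minus strand: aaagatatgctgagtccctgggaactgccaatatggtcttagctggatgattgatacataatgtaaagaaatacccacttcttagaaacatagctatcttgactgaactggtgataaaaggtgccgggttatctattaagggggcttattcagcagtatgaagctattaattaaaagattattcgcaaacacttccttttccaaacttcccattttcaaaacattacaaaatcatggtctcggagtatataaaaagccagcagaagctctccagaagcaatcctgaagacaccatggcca
Cd177 promoter, chr7:24760262-24760561, minus strand: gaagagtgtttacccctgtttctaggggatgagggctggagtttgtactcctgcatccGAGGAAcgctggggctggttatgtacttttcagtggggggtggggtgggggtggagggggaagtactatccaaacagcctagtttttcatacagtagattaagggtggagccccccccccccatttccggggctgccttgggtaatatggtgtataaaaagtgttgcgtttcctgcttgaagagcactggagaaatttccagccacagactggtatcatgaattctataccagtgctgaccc
Mmp8 promoter, chr9:7558179-7558478, plus strand: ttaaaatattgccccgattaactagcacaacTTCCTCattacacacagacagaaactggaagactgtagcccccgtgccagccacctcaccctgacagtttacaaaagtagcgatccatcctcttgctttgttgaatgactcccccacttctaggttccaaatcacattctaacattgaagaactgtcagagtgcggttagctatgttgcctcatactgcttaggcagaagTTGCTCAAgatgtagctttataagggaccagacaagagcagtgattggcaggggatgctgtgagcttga
Lcn2 promoter, chr2:32387690-32387989, minus strand: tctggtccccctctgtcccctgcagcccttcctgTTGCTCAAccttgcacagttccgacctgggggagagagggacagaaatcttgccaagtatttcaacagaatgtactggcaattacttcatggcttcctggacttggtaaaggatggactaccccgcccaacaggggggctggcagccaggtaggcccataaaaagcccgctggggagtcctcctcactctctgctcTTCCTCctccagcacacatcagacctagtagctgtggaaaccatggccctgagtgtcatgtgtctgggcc
The Mmp8 and Lcn2 windows each held 1 match to each motif, the Cd177 window 1 PU.1-type match, and the Chil3 window none to these letters. Over the 8 granule genes, 4 windows held the C/EBP-type letters (Mmp8, Lcn2, Ngp and Ltf) and 6 held the PU.1-type letters (Cd177, Mmp8, Lcn2, Ltf, Mpo and Prtn3). Among 32851 promoter windows of the same length, 10.8% held the former and 28.3% the latter. A match is a string of letters and not a measured site, and binding was not measured here.

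The sort was visible in the marker genes. Ly6c2, which encodes the sorted antigen, had log2 values of 8.61 and 8.56 for CT, 8.72 for T1DM and 8.58 for T2DM among Ly6C-high MCs. Its Ly6C-low libraries read 4.07, 2.69, 3.20 and 3.53 in the same order. Of 6 classical monocyte markers, 5 were higher in Ly6C-high MCs in the test of the subsets over all 8 libraries (limma with mouse group as covariate, called when the p-value adjusted by Benjamini-Hochberg was below 0.01 and log2FC exceeded 1 in size), as were 5.37% of all 16486 genes. Of 9 nonclassical markers, 5 were lower, as were 6.76% of all genes, and 4 were not called. Among these 4, Cx3cr1 had a log2FC of 0.60, higher in Ly6C-high MCs, and the other 8 of the 9 markers lay below 0. In the fit of the CT libraries alone, 4 of 6 classical markers were higher and 1 of 9 nonclassical lower, beside 2.10% and 1.43%. There 3 of 9 nonclassical markers had a log2FC above 0. The Ly6C-low libraries of all mouse groups held B cell transcripts, with Cd79a between 8.56 and 9.08, against 2.68 to 4.17 in Ly6C-high libraries. NK cell transcripts were present as well, with Gzma, a granzyme, between 6.03 and 8.11 against 3.36 to 5.35, and 3 of 5 T and NK cell markers were called lower in Ly6C-high MCs. Levels in bulk libraries do not tell fewer cells of a type from less RNA per cell.

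Chil3, Cd177 and Mmp8 were the granule genes with a clear level in Ly6C-high MCs of every mouse group, and Prtn3 followed the same order of subsets at a low level. Chil3 (chromosome 3, positions 106147554 to 106167564) had log2 values of 10.37 and 10.39 for CT, 9.32 for T1DM and 11.67 for T2DM among Ly6C-high MCs, and 4.35 and 4.09 for CT, 3.88 for T1DM and 6.45 for T2DM among Ly6C-low MCs. Every Ly6C-high library lay above every Ly6C-low library. The log2FC over the 8 libraries was 5.74 (SE 0.17), a fold of 53.6. Of the 31-base sequences of Chil3 transcripts, 41.5% also occur in other genes, mostly in its neighbour and close relative Chil4, which was not analysed here, so reads of both could be counted for Chil3. The share was 12.1% for Mpo, 7.48% for Prtn3, 6.93% for Cd177 and 0 for the other 4 genes.

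Cd177 (chromosome 7, positions 24743983 to 24760334) encodes a surface protein that is known to hold proteinase 3 on the membrane of human neutrophils. It had values of 7.98 and 8.04 for CT, 8.24 for T1DM and 9.07 for T2DM among Ly6C-high MCs, and 2.92 and 1.74 for CT, 2.19 for T1DM and 2.94 for T2DM among Ly6C-low MCs. Again the subsets did not overlap. The log2FC was 5.89 (SE 0.24).

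Mmp8 (chromosome 9, positions 7558429 to 7568486), which cleaves fibrillar collagen, had values of 7.28 and 7.15 for CT, 6.99 for T1DM and 9.70 for T2DM among Ly6C-high MCs. In Ly6C-low MCs it had 2.08 and 2.09 for CT, 1.37 for T1DM and 3.35 for T2DM. The subsets lay apart in each mouse group, and the log2FC was 5.56 (SE 0.21).

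Prtn3 (chromosome 10, positions 79879667 to 79883174) had values of 2.22 and 1.91 for CT, 1.28 for T1DM and 4.54 for T2DM among Ly6C-high MCs, and -0.41 and -1.05 for CT, -1.32 for T1DM and -0.13 for T2DM among Ly6C-low MCs. The lowest Ly6C-high library stayed above the highest Ly6C-low library, and the log2FC was 3.21 (SE 0.43). These 4 genes were the members of the list whose subsets did not overlap, and 16.4% of all genes had all 4 Ly6C-high libraries above all 4 Ly6C-low libraries. The test over 8 libraries called the same 4 of 8 genes higher in Ly6C-high MCs and 0 of 8 lower, beside 5.37% and 6.76% of all genes. The genes were chosen with this contrast known, so nothing is read from that count.

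**Figure D1:**
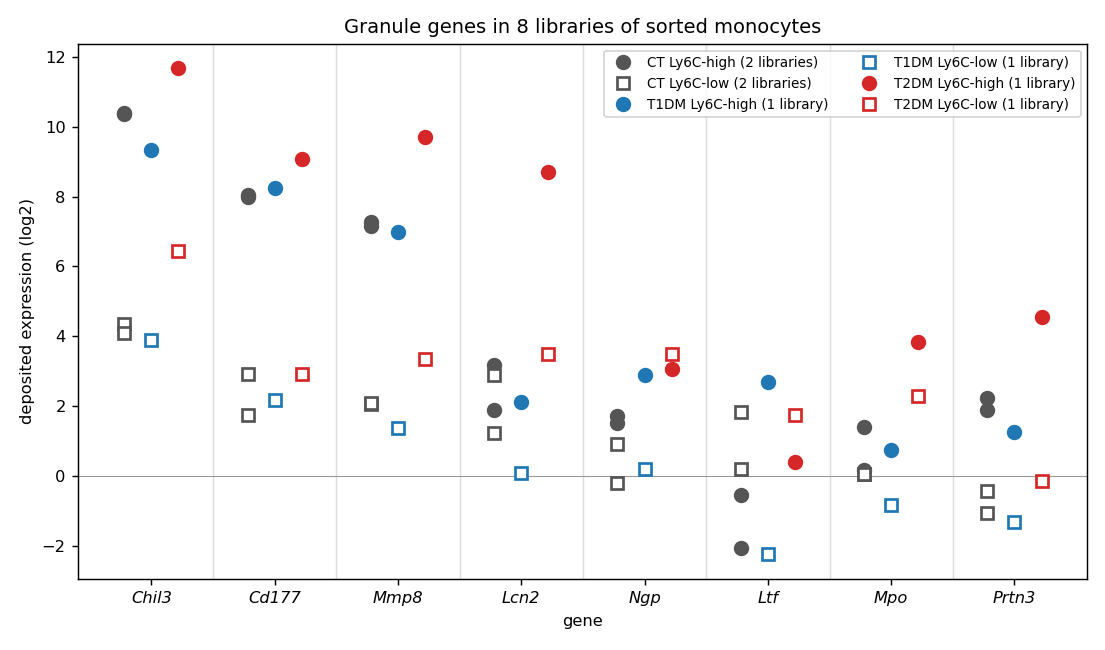
Deposited log2 expression (vertical axis) of the 8 granule genes (horizontal axis) in each library, with filled circles for Ly6C-high and open squares for Ly6C-low MCs and colours for the mouse groups. For Chil3, Cd177, Mmp8 and Prtn3 every filled circle lies above every open square, and the T2DM Ly6C-high library is the highest for these 4 and for Lcn2 and Mpo.

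Within mouse groups the subset difference of Chil3, Cd177 and Mmp8 stayed between 5.13 and 6.35. Chil3 had a log2FC of 6.16 for CT, 5.44 for T1DM and 5.22 for T2DM. Cd177 had 5.68, 6.06 and 6.13 in the same order. Mmp8 had 5.13, 5.62 and 6.35. The order of the mouse groups was thus opposite for Chil3 and for Cd177 and Mmp8, and the test of whether the subset difference differed between diabetic and CT mice gave -0.83 (SE 1.28) for Chil3, 0.41 (SE 0.63) for Cd177 and 0.85 (SE 1.24) for Mmp8, with adjusted p-values of at least 0.947 (limma with Benjamini-Hochberg adjustment). In the fit of the 4 CT libraries alone, Chil3, Cd177 and Mmp8 were called higher, 3 of 8 granule genes beside 2.10% of all genes, and 0 of 8 lower, beside 1.43%. Those calls were lost when any 1 of the 4 CT libraries was left out, which left 0 of 16486 genes called by limma and between 4651 and 5241 at an unadjusted p-value under 0.05. With all 4 libraries kept, limma also called 0 genes without the variance trend (5810 at an unadjusted p-value under 0.05) and 0 with the replicate number as a block (5513). Without 1 CT library the log2FC of the 3 genes stayed between 5.07 and 6.29.

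**Figure D2:**
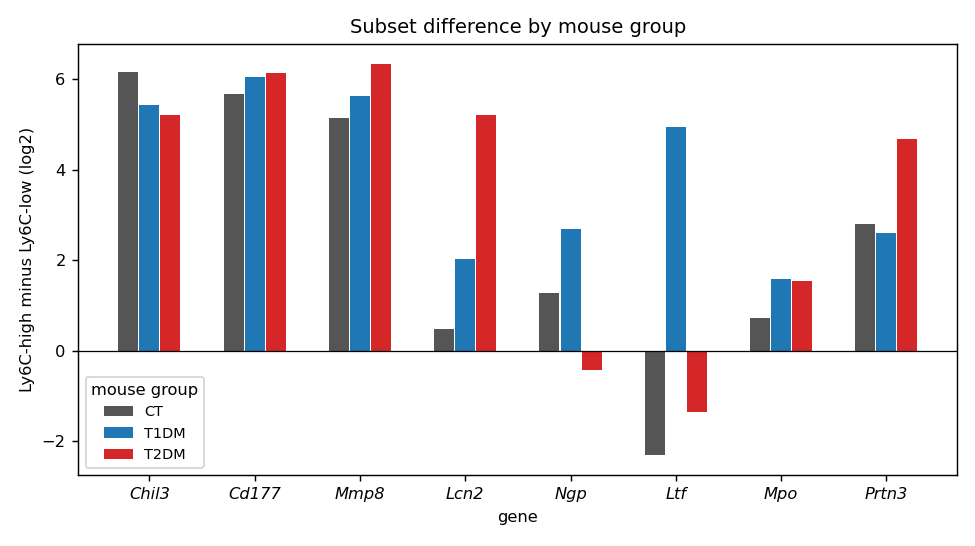
Difference of Ly6C-high minus Ly6C-low MCs in log2 (vertical axis) for each granule gene (horizontal axis) in CT (mean of 2 libraries per subset), T1DM and T2DM mice (1 library per subset), without error bars because the diabetic bars rest on single libraries. The bars of Chil3, Cd177 and Mmp8 are of similar height in the 3 mouse groups, whereas those of Lcn2 stand at 0.47, 2.03 and 5.21 and those of Ltf differ in sign.

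The remaining granule genes had no common subset order. Lcn2 (chromosome 2, positions 32384637 to 32387739), which binds bacterial siderophores and so withholds iron, had values of 3.17 and 1.90 for CT and 2.12 for T1DM among Ly6C-high MCs but 8.71 for T2DM. In Ly6C-low MCs it had 1.24 and 2.89 for CT, 0.09 for T1DM and 3.50 for T2DM. The CT subsets overlapped, and 1 library stood apart from the other 7. Its subset log2FC was 0.47 for CT, 2.03 for T1DM and 5.21 for T2DM.

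Mpo (chromosome 11, positions 87793784 to 87804412), the haem enzyme that makes hypochlorous acid, had 0.17 and 1.40 for CT, 0.74 for T1DM and 3.83 for T2DM among Ly6C-high MCs, and 0.06 for both CT libraries, -0.84 for T1DM and 2.28 for T2DM among Ly6C-low MCs. Both T2DM libraries lay above the other 6, whatever the subset. Ngp (chromosome 9, positions 110419808 to 110423012) had 1.53 and 1.72 for CT, 2.89 for T1DM and 3.07 for T2DM among Ly6C-high MCs, and -0.20 and 0.91 for CT, 0.20 for T1DM and 3.49 for T2DM among Ly6C-low MCs. Its subset difference was 1.27 for CT, 2.69 for T1DM and -0.42 for T2DM, where both subsets were high.

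Ltf (chromosome 9, positions 111019292 to 111042766), the iron-binding protein of specific granules, scattered without regard to subset. Its values were -2.04 and -0.55 for CT, 2.71 for T1DM and 0.42 for T2DM among Ly6C-high MCs, and 0.20 and 1.83 for CT, -2.24 for T1DM and 1.76 for T2DM among Ly6C-low MCs. Its CT duplicates differed by 1.49 and 1.62, and its subset difference was -2.31 for CT, 4.95 for T1DM and -1.35 for T2DM. The interaction test gave 4.11 (SE 1.95, adjusted p = 0.789, limma with Benjamini-Hochberg adjustment). It joins T1DM and T2DM, whose subset differences of 4.95 and -1.35 had opposite signs, so its size depends strongly on which model enters. The 5 genes Lcn2, Ngp, Ltf, Mpo and Prtn3 all had a mean under 3, where duplicates of CT are further apart than at higher means.

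T2DM MCs had the highest granule gene values of these libraries. The T2DM Ly6C-high library was the highest of all 8 for 6 of 8 genes, beside 19.1% of all genes, and the highest of the 4 Ly6C-high libraries for 7 of 8, beside 31.3%. It exceeded the other 3 by more than 1 for Chil3, Mmp8, Lcn2, Mpo and Prtn3, 5 of 8 genes, beside 2.40% of all genes. In Ly6C-high MCs the T2DM library lay above both CT libraries for 8 of 8 genes and past 2-fold above their mean for 8 of 8, beside 5.96% of all genes, and 0 of 8 were past 2-fold below, beside 7.89%. The log2FC was 6.18 for Lcn2, 3.04 for Mpo, 2.48 for both Mmp8 and Prtn3, 1.71 for Ltf, 1.44 for Ngp, 1.29 for Chil3 and 1.05 for Cd177, with a median of 2.09 against 0.02 over all genes. The CT Ly6C-high duplicates differed by 0.02 for Chil3, 0.06 for Cd177 and 0.13 for Mmp8, and by 1.27 for Lcn2, 1.23 for Mpo and 1.49 for Ltf. They shared a sequencer and may lack the variation from mouse to mouse, so a small spread between them does not gauge a difference between mouse groups. Ltf lay 0.96 above the higher CT library, less than its duplicates were apart. Ly6c2 differed from CT by -0.01 in the same library, and the classical marker Vcan, a matrix proteoglycan, by 2.46. Of the cell type lists, 3 of 6 classical markers were past 2-fold above CT there and 0 below. Of 7 mature neutrophil markers, 4 were past 2-fold above (median 1.60) and 1 below. Past 2-fold below CT were 4 of 9 nonclassical, 3 of 5 T and NK cell and 1 of 5 B cell markers. So were 3 of 5 basophil and 1 of 3 measured eosinophil markers, and 0 of these 5 lists' markers were above. The basophil values were low there, and both diabetic Ly6C-high libraries had the identical value of -2.56 for Mcpt8 and of -2.59 for Prss34. That basophil count is therefore uncertain. The part of the cell type markers in the granule gene values was not tested.

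In Ly6C-low MCs the T2DM library lay above both CT libraries for 7 of 8 genes, with Ltf between them, and past 2-fold above their mean for 5 of 8, beside 5.09% of all genes, with 0 of 8 below, beside 5.68%. It was the highest of the 4 Ly6C-low libraries for 7 of 8, beside 27.7% of all genes, and by more than 1 for Chil3, Mmp8, Ngp and Mpo, 4 of 8 beside 1.92%. Ngp had a log2FC of 3.13, Chil3 2.23, Mpo 2.22, Lcn2 1.43 and Mmp8 1.27. Ltf (0.75), Cd177 (0.61) and Prtn3 (0.60) stayed within 2-fold. For Chil3 the T2DM library was 2.10 above the higher CT library, whose duplicates were 0.26 apart. For Cd177 it was 0.02 above, well inside a duplicate difference of 1.18, and for Lcn2 0.61 above with duplicates 1.65 apart. In the same library 3 of 5 T and NK cell markers were past 2-fold below CT and 0 above, with a median of -1.69. Above it by more than 2-fold were 6 of 7 mature neutrophil markers (median 1.98), 4 of 5 basophil markers (3.22) and 2 of 3 measured eosinophil markers (1.16), and 0 of these were past 2-fold below. Their part was not tested.

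The T1DM library lay above the CT mean for 3 and below it for 5 of 8 genes in Ly6C-high MCs, and below it for 8 of 8 in Ly6C-low MCs. In Ly6C-high MCs 2 of 8 genes were past 2-fold above the CT mean, Ltf (4.00) and Ngp (1.26), beside 5.11% of all genes, and 1 of 8 was past 2-fold below it, Chil3 (-1.06), beside 4.94%. Mmp8 had a log2FC of -0.23, Cd177 0.23, Prtn3 -0.79, Lcn2 -0.42 and Mpo -0.05, the last between the CT values as was Lcn2. The T1DM Ly6C-low library was below both CT libraries for 6 of 8 genes and past 2-fold below their mean for Lcn2 (-1.97) and Ltf (-3.25), 2 of 8 beside 4.78% of all genes, and past 2-fold above it for 0 of 8, beside 4.03%. It was the lowest of the 4 Ly6C-low libraries for 6 of 8, beside 26.5% of all genes. The median over the granule genes was -0.14 for the Ly6C-high library and -0.65 for the other. In the T1DM Ly6C-high library 4 of 7 mature neutrophil markers were past 2-fold above CT (median 1.34) and 0 below. There 4 of 5 basophil and 3 of 9 nonclassical markers were past 2-fold below CT and 0 above. The median basophil value was only 0.04 and -0.20 in the CT and -2.41 in the T1DM Ly6C-high library, so that basophil count is uncertain. In the T1DM Ly6C-low library 0 of 7 mature neutrophil markers were above and 2 below, and 5 of 5 basophil markers were above. The same shares of all genes apply, and the part of these markers was not tested.

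**Figure D3:**
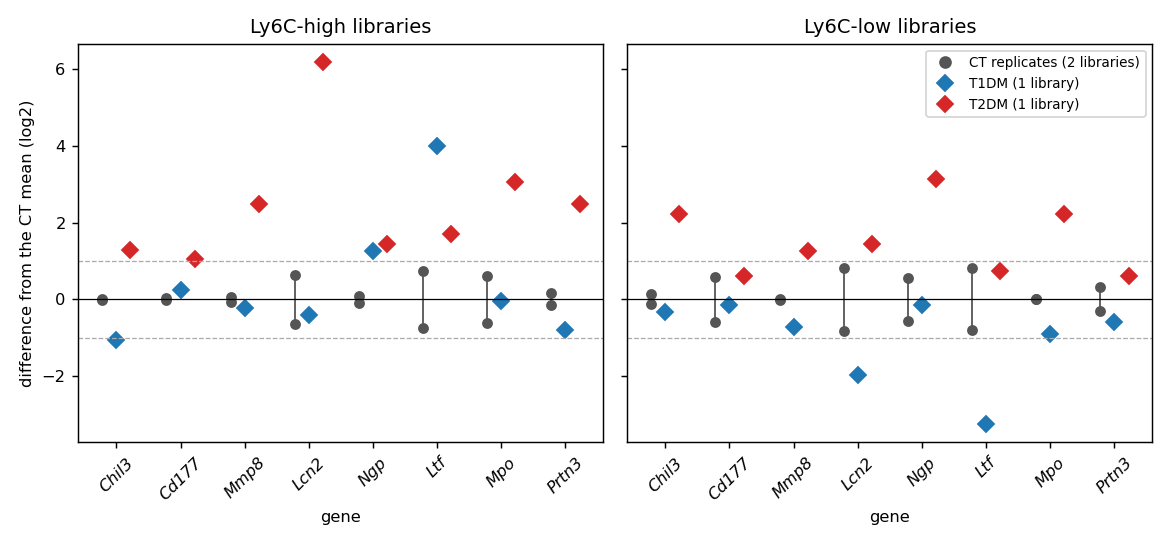
Difference from the mean of the CT libraries of the same subset in log2 (vertical axis) for each granule gene (horizontal axis), for CT duplicates as joined grey points and the single T1DM and T2DM libraries as diamonds, and dashed lines at 2-fold. In Ly6C-high MCs all 8 T2DM diamonds lie above the upper dashed line and Lcn2 reaches 6.18, while T1DM diamonds fall on both sides of 0.

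T1DM and T2DM libraries were run on the same sequencer, and here 1 library stands against 1. In Ly6C-high MCs, T2DM minus T1DM was 6.60 for Lcn2, 3.27 for Prtn3, 3.09 for Mpo, 2.71 for Mmp8, 2.35 for Chil3, 0.82 for Cd177, 0.18 for Ngp and -2.29 for Ltf. Past 2-fold higher were 5 of 8 genes and lower 1 of 8, beside 8.46% and 10.8% of all genes. In Ly6C-low MCs it was 4.00 for Ltf, 3.41 for Lcn2, 3.29 for Ngp, 3.12 for Mpo, 2.57 for Chil3, 1.98 for Mmp8, 1.19 for Prtn3 and 0.75 for Cd177, so 7 of 8 genes were past 2-fold higher, beside 7.29% of all genes, and 0 of 8 lower, beside 7.97%. Both diabetic models were compared with the same CT libraries, and the values above are each model's own. By the same difference, 3 of 7 mature neutrophil markers were past 2-fold higher and 1 lower in Ly6C-high MCs. In Ly6C-low MCs 6 of 7 were higher and 0 lower, with a median of 1.66. T and NK cell markers had 2 of 5 higher and 3 lower in Ly6C-high MCs, and 1 higher and 3 lower in Ly6C-low MCs. B cell markers had 0 of 5 higher and 3 lower in Ly6C-high MCs. The same shares of all genes apply, and the part of these markers was not tested.

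T1DM and T2DM together were tested against CT within each subset by limma over the 8 libraries. No granule gene was called, and 0 of 16486 genes were called in either subset, with 739 genes in the Ly6C-high and 489 in the Ly6C-low comparison at an unadjusted p-value under 0.05. The log2FC of the granule genes in Ly6C-high MCs ran from 0.12 (Chil3, SE 0.90) to 2.88 (Lcn2, SE 2.00), and the lowest unadjusted p-value was 0.0744 (Ltf, adjusted p = 0.999). In Ly6C-low MCs it ran from -1.25 (Ltf) to 1.49 (Ngp). In this test T1DM and T2DM count as replicates of each other, and they lay on opposite sides of the CT mean for Chil3, Mmp8, Lcn2, Mpo and Prtn3 in Ly6C-high MCs and for all 8 genes in Ly6C-low MCs. A T2DM effect alone has 1 library per subset and was given without a test.

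Other granule genes were taken from lists by the granule class they are known from. Of 7 further specific granule genes, 2 were called higher in Ly6C-high MCs and 1 lower in the test over 8 libraries (limma with Benjamini-Hochberg adjustment), beside 5.37% and 6.76% of all genes. The higher ones were Hp, haptoglobin (log2FC 2.95, SE 0.13, adjusted p = 1.89e-06), and Cybb, the catalytic subunit of the phagocyte NADPH oxidase (1.10, SE 0.06, adjusted p = 5.33e-06). Pglyrp1, which binds bacterial peptidoglycan, was lower (-1.64, SE 0.16, adjusted p = 9.71e-05). The median of these 7 genes was 0.86, against -0.08 over all genes.

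Of 7 further azurophil granule genes, Lyz2, lysozyme (2.60, SE 0.07), and Ctsc, the dipeptidyl peptidase that activates the granule serine proteases (1.71, SE 0.12), were higher in Ly6C-high MCs. Cst7, an inhibitor of cysteine cathepsins, was lower (-2.07, SE 0.28, adjusted p = 0.000578, limma with Benjamini-Hochberg adjustment). Lyz2 shares 32.8% of its 31-base sequences with other genes, mostly Lyz1. Among 11 gelatinase and secretory granule genes, 1 was called higher, Fcnb, a ficolin that recognizes microbial sugars (3.46, SE 0.65, adjusted p = 0.00351, limma), and 0 lower. Fcnb was low in every library, between 0.72 and 3.61 in the Ly6C-high libraries and between -2.30 and -0.77 in the others. Its CT duplicates were 0.87 and 0.99 apart, so the size of this difference is uncertain. Mmp9, the gelatinase itself, was not called (0.65, SE 0.39, adjusted p = 0.241).

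Relatives, inhibitors and partners of the granule proteins were tested in the same way. Among chitinase-like genes other than Chil3, 3 of 4 were called lower in Ly6C-high MCs by limma (Chil5 at -4.26, Chit1 at -2.23 and Chia1 at -1.76) and 0 of 4 higher, beside 6.76% and 5.37% of all genes, the shares against which the other counts of calls between subsets are read too. Chit1 and Chia1 each had identical values in both CT Ly6C-high libraries (-2.19 and -2.17), and Chit1 was at -2.01 in the T2DM Ly6C-low library, within its Ly6C-high values, so the sizes of these 2 differences are uncertain. Among 6 matrix metalloproteases other than Mmp8, 1 was called higher (Mmp19, log2FC 2.24, adjusted p = 0.00145, limma) and 0 lower. Of 6 measured inhibitors of granule proteases, Cstb (1.92) and Timp2 (1.38) were called higher and Serpina3g (-3.43) lower. Of 10 partners and receptors of granule proteins, 3 were called higher (Cd14 at 1.87, Lrp1 at 1.60 and Itgam at 1.03) and 1 lower (F2r at -2.70). Itgam, a chain of the integrin that associates with CD177 on neutrophils, was among them, and its partner chain Itgb2 was not called (0.33, adjusted p = 0.0104, limma).

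Of 12 transcription factors of the granulocyte and monocyte programmes, 3 were called higher in Ly6C-high MCs and 3 lower, beside 5.37% and 6.76% of all genes. The higher ones were Cebpa (log2FC 2.62, SE 0.17), Cebpd (2.20, SE 0.16) and Cebpe (2.07, SE 0.47, adjusted p = 0.00935, limma), the last known as the factor required for specific granules. Cebpe was low in every library, between -0.35 and 1.49 in the Ly6C-high libraries and between -2.53 and -0.83 in the others. Ets1 (-4.01), Klf5 (-2.44) and Lef1 (-1.41) were lower. Spi1, which encodes PU.1, had an adjusted p-value of 2.11e-05 (limma) but a log2FC of 0.98, just under the limit.

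In T2DM Ly6C-high MCs, 6 of the 11 gelatinase and secretory granule genes were past 2-fold above the CT mean and 0 below, beside 5.96% and 7.89% of all genes, with a median of 1.22. In T1DM Ly6C-high MCs the numbers were 1 above and 2 below, beside 5.11% and 4.94%, with a median of 0.01. Of the 7 further specific granule genes, 2 were past 2-fold above CT and 0 below in T2DM Ly6C-high MCs, and of the 7 further azurophil genes 0 were above and 2 below, beside the same 5.96% and 7.89%. The largest differences among these granule genes were those of Lrg1 (6.00) and Wfdc21 (4.58), both named after their values were seen. The 2 further specific granule genes above CT were Wfdc21 and Orm1. Wfdc21 had the identical value of -2.15 in both CT Ly6C-high libraries and Orm1 that of -0.71, so this count rests on genes with repeated values in CT. How the authors set values of genes without reads is not given in the sources used here. Lrg1, which encodes a secreted leucine-rich glycoprotein, had values of 0.31 and 1.20 for CT, -0.16 for T1DM and 6.76 for T2DM among Ly6C-high MCs. Fpr2, a receptor for formylated peptides and other chemoattractants, had 5.41 and 4.93 for CT, 4.25 for T1DM and 7.44 for T2DM among Ly6C-high MCs.

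Markers of mature neutrophils moved with the T2DM values in part. Of 11 markers, 7 had a row in the table, and Ly6g, the antigen that the sort gated out, was not among them and was not analysed here. As 2 raised to the value, the 7 markers summed to 482 and 473 for CT, 450 for T1DM and 851 for T2DM among Ly6C-high MCs, and to 158 and 141 for CT, 158 for T1DM and 293 for T2DM among Ly6C-low MCs. Csf3r, the receptor for G-CSF that MCs also express, had the highest deposited value of them in every library, with 8.84, 8.83, 8.66 and 9.36 in Ly6C-high MCs in that order, and so weighed most in the sum. As the scaling by length is unknown, this is an order of deposited values and not of transcript abundance.

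S100a8, a subunit of the calcium-binding protein calprotectin of the neutrophil cytosol, had 1.14 and 1.15 for CT, 2.49 for T1DM and 6.90 for T2DM among Ly6C-high MCs, and 1.61 and 2.07 for CT, -0.30 for T1DM and 3.88 for T2DM among Ly6C-low MCs. Cxcr2, the chemokine receptor of neutrophils, had 3.07 and 2.81 for CT, 2.95 for T1DM and 2.79 for T2DM among Ly6C-high MCs, where the T2DM library was the lowest, but 5.78 in the T2DM Ly6C-low library against 3.63 to 4.19 in the other 3. Retnlg, a resistin-like protein of neutrophils, had 1.98 and 1.46 for CT, 3.87 for T1DM and -1.55 for T2DM among Ly6C-high MCs, and 3.30 in T2DM Ly6C-low MCs. In the T2DM Ly6C-high library 4 of 7 markers were past 2-fold above CT and 1 below, beside 5.96% and 7.89% of all genes. In the T2DM Ly6C-low library 6 of 7 were above and 0 below, beside 5.09% and 5.68%. The T1DM libraries had 4 above and 0 below in Ly6C-high MCs, beside 5.11% and 4.94%, and 0 above and 2 below in Ly6C-low MCs, beside 4.03% and 4.78%. The part of other cells in the granule gene values was not tested.

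Progenitor markers were looked up as well. Ms4a3, a gene of granulocyte-monocyte progenitors, had -1.40 and -1.43 for CT, -2.36 for T1DM and -1.38 for T2DM among Ly6C-high MCs. In the T2DM Ly6C-high library 2 of 6 progenitor markers were past 2-fold below CT, Kit (-1.74) and Prss57 (-1.08), and 0 above, beside 7.89% and 5.96% of all genes. In the T1DM Ly6C-high library 1 of 6 was past 2-fold below CT and 0 above, beside 4.94% and 5.11%. In the T2DM Ly6C-low library 2 of 6 were past 2-fold above CT and 0 below, beside 5.09% and 5.68%. The T1DM Ly6C-low library also had 2 above and 0 below, beside 4.03% and 4.78%. The summed level of the 6 markers was 57.6 and 62.4 for CT and 65.2 for T2DM among Ly6C-high MCs. Among Ly6C-low MCs it was 55.5 and 45.8 for CT and 84.4 for T2DM. Flt3 had the highest deposited value of them in each library. The part of these markers was not tested.

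**Figure D4:**
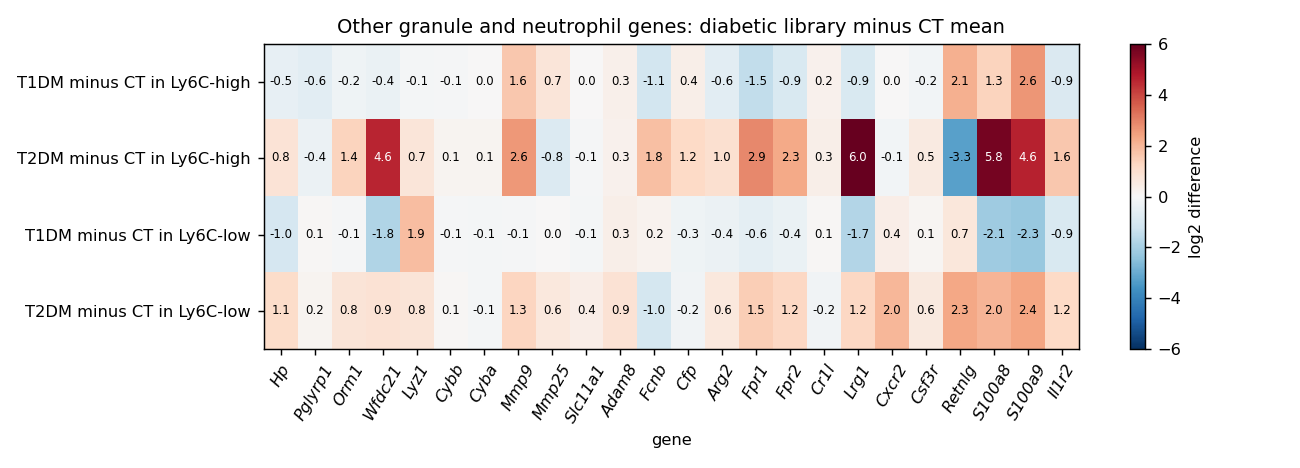
Difference of each diabetic library from the mean of the CT libraries of its subset in log2 (colour and printed value) for the measured specific granule, gelatinase and secretory granule and mature neutrophil genes other than the 8 granule genes above (horizontal axis). The T2DM Ly6C-high row holds the largest differences, Lrg1 (6.00), S100a8 (5.76) and S100a9 (4.60), while Retnlg is lower there (-3.27).

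Likeness of pattern was described by Pearson's r of the log2 values over the 8 libraries, among genes with a mean of at least 5. The 3 genes most like Chil3 were Arpc1b, Spi1 and Arpc4, with r from 0.997 to 0.999. Those most like Cd177 were Ncstn, Xbp1 and Selenop, and those most like Mmp8 were Cd302, Ugt1a7c and Msr1, with r from 0.996 to 0.999. Msr1, a scavenger receptor, had 7.80 and 7.79 for CT, 8.00 for T1DM and 9.02 for T2DM among Ly6C-high MCs, and between 4.42 and 5.78 in Ly6C-low MCs. Lcn2 was most like Socs3 (0.965), Ncf4 (0.949) and Fpr2 (0.942), and Ngp most like Fam43a (0.956), Stk11ip (0.949) and Ppp3ca (0.908). The first 3 granule genes correlated with each other at r from 0.97 to 0.99. All 8 libraries enter these values, subsets and mouse groups together. For Chil3, Cd177 and Mmp8 the subsets lay apart, whereas for Lcn2 and Ngp they overlapped and the T2DM libraries were the highest. For Lcn2 the T2DM Ly6C-low library (3.50) was close to a CT Ly6C-high library (3.17). For Ngp the T2DM Ly6C-high library (3.07) was close to the T1DM one (2.89). The values are a description.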

How the data were processed

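Reads were assigned to transcripts with Kallisto 0.45 and brought to gene level, as counts and TPM, with tximport 1.12.3 under R 3.6.1. The authors deposited normalized log2 expression values for 16486 genes. Whether these came from the counts or from TPM, their normalization, filter on low genes and any adjustment between sequencers are not given in the sources used here. From those log2 values, without further scaling, linear models were fitted to all genes with limma 3.58.1 (R 4.3.3) and moderated by empirical Bayes, letting the prior variance follow expression. Genes were called when the p-value adjusted by Benjamini-Hochberg was below 0.01 and log2FC exceeded 1 in size. Mouse group was the covariate when subsets were compared. T1DM and T2DM together were set against CT in a model of 4 groups, with the difference between subset differences as a contrast. Single libraries were compared without a test, by counts past 2-fold. Groups held at most 2 libraries, too few to look for outliers.

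Granule genes and gene lists were chosen with earlier results of these data known. Genes named are the granule genes, listed genes that passed a test, had a mean log2 value of at least 5 or are defining markers, and for each granule gene with a mean of at least 1 the 3 genes of most similar pattern. Exceptions are Lrg1, Wfdc21 and Orm1, which were named after their values were seen. Shared sequences of 31 bases were counted in GENCODE M21 transcripts. Positions are RefSeq's on GRCm38.p6, where all 8 granule genes matched by symbol. The fits of the subsets, over 8 libraries and within CT, were tested on simulated data. Those of diabetic against CT and of the interaction were not. Alternatives were a filter at a mean log2 value of 1, 1 added on the linear scale, quantile normalization, no variance trend, an adjusted p-value limit of 0.05, a replicate block, and leaving out each CT library or diabetic model. Python 3.11.15 (numpy 2.4.6, pandas 2.3.3, matplotlib 3.10.9) served for the remaining steps.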

Additional observations from a re-analysis of the deposited data

How the results depend on the processing

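The subset calls over 8 libraries numbered between 1507 and 2792 under every alternative, against 2001, and Chil3, Cd177 and Mmp8 stayed called, as did Prtn3 wherever the filter kept it. The 581 calls within CT became 1089 with the low-value filter, 1936 at a limit of 0.05, and 0 without the variance trend (5810 genes at an unadjusted p under 0.05). The replicate block also left 0 calls (5513 genes at an unadjusted p under 0.05), and the range was 0 to 0 when 1 CT library was left out. Whether CT libraries of the same replicate number belong together is not given in the sources used here. The deviations of the CT duplicates in the 2 subsets correlated at 0.00892 over genes. That cannot decide it, as such deviations can be noise of each library alone. The interaction called 3 genes at a limit of 0.05, against 0. Under quantile normalization the subset log2FC of Ltf was 0.17. Leaving out 1 library or model at a time gave subset values from -1.99 to 0.48 for Ltf over 8 libraries and from -0.36 to 1.29 for Lcn2 in CT. Diabetic against CT in Ly6C-high MCs then ran from -1.06 to 1.29 for Chil3, -0.23 to 2.48 for Mmp8, -0.42 to 6.18 for Lcn2, -0.048 to 3.04 for Mpo and -0.79 to 2.48 for Prtn3. In Ly6C-low MCs it ran from -0.34 to 2.23 for Chil3, -0.36 to 0.82 for Cd177, -0.71 to 1.27 for Mmp8, -1.97 to 1.43 for Lcn2, -0.16 to 3.13 for Ngp, -3.25 to 0.75 for Ltf, -0.90 to 2.22 for Mpo and -0.59 to 0.60 for Prtn3. The interaction ran from -0.18 to 1.00 for Cd177, -1.69 to 1.42 for Ngp and -0.20 to 1.88 for Prtn3. In the Ly6C-high comparison each lowest value was the one without T2DM, and each highest the one without T1DM. The causes of these changes were not tested. A lone CT library was assumed to vary like the other groups. With no read counts in the values, limits of depth could not be given.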

Other observations

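Genes of basophils, another granulocyte that can be present in blood, each had their highest value in a diabetic Ly6C-low library. Both diabetic Ly6C-low libraries lay above all others for Gata2, Fcer1a and Mcpt8. For Cpa3 the T1DM Ly6C-low library lay below a CT Ly6C-high library. For Prss34 the T2DM Ly6C-low library lay below a CT Ly6C-low library. Of 5 basophil markers, 5 in T1DM and 4 in T2DM were past 2-fold above the CT mean in Ly6C-low MCs, beside 4.03% and 5.09% of all genes, with medians of 2.32 and 3.22. These medians are the values of Prss34 and Mcpt8, and their sizes are uncertain. Prss34 had the identical value of -1.89 in a CT Ly6C-low and both CT Ly6C-high libraries. Mcpt8 had that of -1.99 in a CT Ly6C-low and a CT Ly6C-high library. Gata2, a transcription factor of basophils and mast cells, had log2 values of 0.81 and 2.52 in the CT, 3.41 in the T1DM and 5.41 in the T2DM Ly6C-low library. Fcer1a, the chain of the IgE receptor that binds IgE, had -1.64 and -0.09 in the CT, 2.66 in the T1DM and 3.18 in the T2DM Ly6C-low library. In Ly6C-high MCs 4 of 5 in T1DM and 3 of 5 in T2DM were past 2-fold below CT, beside 4.94% and 7.89% of all genes, with medians of -1.97 and -1.44, and 0 of 5 were above it in either model. The CT duplicates were far apart there for Gata2 (1.21 and 3.33) and for Cpa3, a mast cell and basophil protease (1.79 and -2.49), whose T1DM and T2DM values lay between them. Mcpt8, a basophil protease, had the identical value of -2.56 in both diabetic Ly6C-high libraries, and Prss34 that of -2.59. With T1DM and T2DM together against CT, limma called 0 of 5 in either subset. In Ly6C-low MCs the log2FC of Fcer1a was 3.79 (adjusted p = 0.819, limma with Benjamini-Hochberg adjustment), and 3 of 5 had an unadjusted p under 0.05, beside 489 of all 16486 genes. The list was chosen with earlier results of these data known, so nothing is read from that count. In this comparison the instrument and diabetes cannot be told apart.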
